A study of Mus musculus with 9 samples.

Results

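The genes described here make cholesterol, sense it and move it through the cell. They were named by symbol in a list of 28, and 27 of them had a probe set on the array that named 1 gene, out of 18193 genes measured in this way. Acat2, of the first step of the pathway, was not analysed here. The other 27 were 17 enzymes of synthesis, 4 genes of sterol sensing and 6 genes of uptake, transfer and efflux. Each gene was read from 1 probe set, the one with the highest mean over the 9 arrays, and 19 of the 27 had more than 1. Those of Hmgcs1, Fdft1 and Hsd17b7 carry the maker's suffix x_at, and those of Mvd, Lss and Lipa carry s_at. Both suffixes mark sets with probes that may also detect other transcripts. All levels are deposited log2 values, so a difference of 1 is a 2-fold change and a difference of 0.5 is a 1.41-fold change.

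The study used NIH-CAR cells, a clone of the mouse fibroblast line NIH-3T3 that stably carries CARΔ1, a form of the receptor by which adenovirus enters, at passage 12. In the A/B-deleted group, an adenovirus delivered HA-PPARgCDE, the nuclear receptor PPARγ without its N-terminal A/B-domain, and the cells were then given 1 µM of its agonist rosiglitazone. In the full-length group the adenovirus delivered HA-PPARg2 and the cells were given 1 µM rosiglitazone. In the empty-vector group the cells were exposed to AdEmpty and then to the vehicle DMSO. Each group had 3 arrays, every group carried CARΔ1 and an adenovirus left on for 2 h, and receptor and agonist changed together against empty vector. Everything comes from 1 clone, and no group had the agonist without a receptor or a receptor without the agonist. The comparisons ask what each receptor form with its agonist did to these genes, and whether the forms differed. The design text speaks of 3 individual experiments without assigning arrays to them, so p-values measure the spread between these arrays. RNA came from whole cultures, in which fewer cells making a transcript and less of it per cell cannot be told apart.

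Cholesterol is built from acetyl-CoA through mevalonate and farnesyl diphosphate, a branch point towards other isoprenoids, and then through squalene and lanosterol. When sterol is scarce, SCAP carries the transcription factor SREBP2 (gene Srebf2) to the Golgi to be cut, and the released factor switches on genes of the pathway. When sterol is plentiful, the INSIG proteins hold SCAP and SREBP2 in the endoplasmic reticulum. Cholesterol from lipoproteins is freed in lysosomes by the lipase of Lipa, leaves them through NPC1 and NPC2, and is exported from the cell by ABCA1 and ABCG1.

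Pparg averaged 11.34 ± 0.63 with the A/B-deleted receptor, 11.25 ± 0.84 with the full-length receptor and 7.06 ± 0.10 with empty vector (SD, n = 3 each). Its probe set was not separated into transgene and endogenous transcript. Fabp4, a fatty acid carrier and a known PPARγ target, averaged 12.36 ± 1.15, 13.42 ± 0.26 and 5.82 ± 0.37 in the same order, so it rose in both receptor groups (limma adjusted p = 0.000911 for A/B-deleted and adjusted p = 0.000237 for full-length minus empty vector). Fibroblast markers were high in every group: the 9 of the list, among them Vim and Col1a2, had array medians between 12.83 and 13.70, and 0 of 9 were called in any comparison. Of 6 adipocyte markers 4 were measured. Cidec, a lipid droplet protein, averaged 5.70 ± 0.37 with the A/B-deleted receptor, 7.66 ± 0.71 with the full-length receptor and 5.15 ± 0.21 with empty vector. It was not called with the A/B-deleted receptor (0.55, limma adjusted p = 1) and rose by 2.51 with the full-length one (limma adjusted p = 0.00915). Its difference was -1.96 for A/B-deleted minus full-length (95% interval -2.69 to -1.23, limma adjusted p = 0.871). Adipoq averaged 5.54 over the 9 arrays. No gene of the macrophage, epithelial and endothelial, muscle or hepatocyte lists was called. The arrays numbered 3 stood apart: on the first principal component, with 38.1% of the variance, they scored 22.3 with the A/B-deleted receptor, 42.5 with the full-length receptor and 20.6 with empty vector, against -21.1 to 0 for the other 6. Their 18S ribosomal RNA control probe sets averaged 7.59 to 8.67, against 10.51 to 12.44 on the other arrays.

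No cholesterol gene was called in any of the 3 comparisons. The counts that follow are from the fit without a block. With the A/B-deleted receptor against empty vector 0 of 27 passed a limma adjusted p of 0.05, where 0.170% of all genes did, and 1 had an unadjusted p under 0.05, where 3.79% of all genes did. With the full-length receptor against empty vector 0 of 27 passed, where 0.654% of all genes did, and 2 had an unadjusted p under 0.05, where 6.19% of all genes did. Between the A/B-deleted and full-length receptors 0 of 27 passed, as did 0% of all genes, and 0 had an unadjusted p under 0.05, where 1.52% of all genes did. An F test over the 3 groups also called 0 of 27, where 0.418% of all genes were called. The median difference of the 27 was -0.05 for A/B-deleted minus empty vector, -0.08 for full-length minus empty vector and 0.04 for A/B-deleted minus full-length. The medians over all 18193 genes were -0.03, 0.00 and -0.01. The first pair of comparisons shares the empty-vector arrays. For the 17 synthesis genes the medians were -0.04, -0.13 and 0.05, and without empty-vector array 1 those against empty vector were 0.14 and 0.12, so their sign depended on single arrays.

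**Figure D1:**
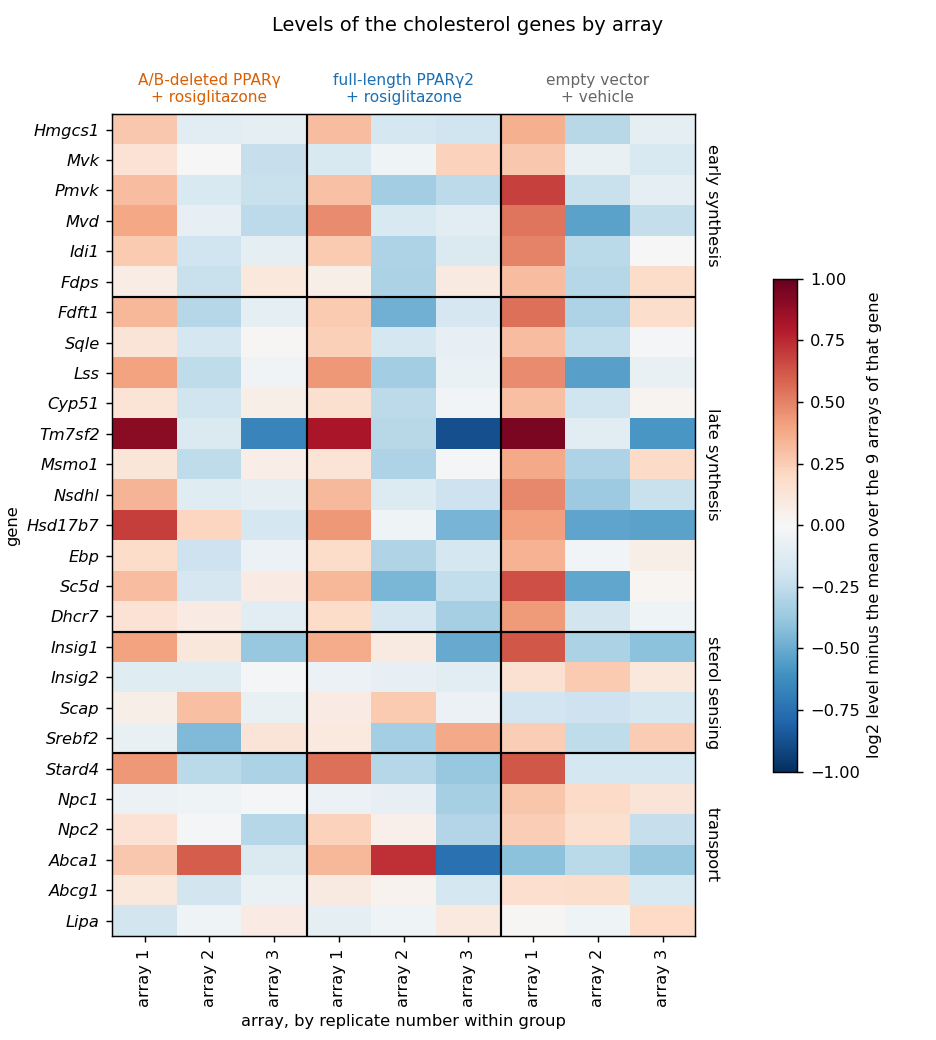
Each cell is the log2 level of 1 gene (rows, 27 genes by role) on 1 array (columns) minus that gene's mean over the 9 arrays, with A/B-deleted arrays at the left, full-length arrays in the middle and empty-vector arrays at the right. The array numbered 1 stands out in every group for most synthesis genes, while group blocks do not.

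How large a change these arrays could still hold is given by the 95% intervals. For A/B-deleted minus empty vector they lay within 1 log2 unit of 0 for 24 of 27 genes and within 0.5 for 10. For full-length minus empty vector the counts were 25 and 8, and for A/B-deleted minus full-length they were 25 and 12. A 2-fold change in either direction thus lay outside most of these intervals, and a 1.41-fold change in at least 1 direction lay inside most of them. With the replicate number as a block the intervals narrowed, and 24 of 27 lay within 0.5 in each of the 3 comparisons, with 0 called. For full-length minus empty vector equal numbers were not taken as pairs, so its narrower intervals are less certain. The block also raised the calls among all genes to 0.912% for A/B-deleted minus empty vector and 3.63% for full-length minus empty vector. With it 6 of 27 had an unadjusted p under 0.05 for A/B-deleted minus empty vector, where 1790 of 18193 genes did. They were Hsd17b7, Insig2, Scap, Srebf2, Npc1 and Abca1. For full-length minus empty vector 6 of 27 did, where 2582 of 18193 genes did. Those were Fdft1, Tm7sf2, Ebp, Insig2, Scap and Npc1. Between the receptors 0 of 27 did, where 786 of 18193 genes did. The lowest adjusted p of any cholesterol gene with the block was 0.0938, for Npc1 with the full-length receptor.

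**Figure D2:**
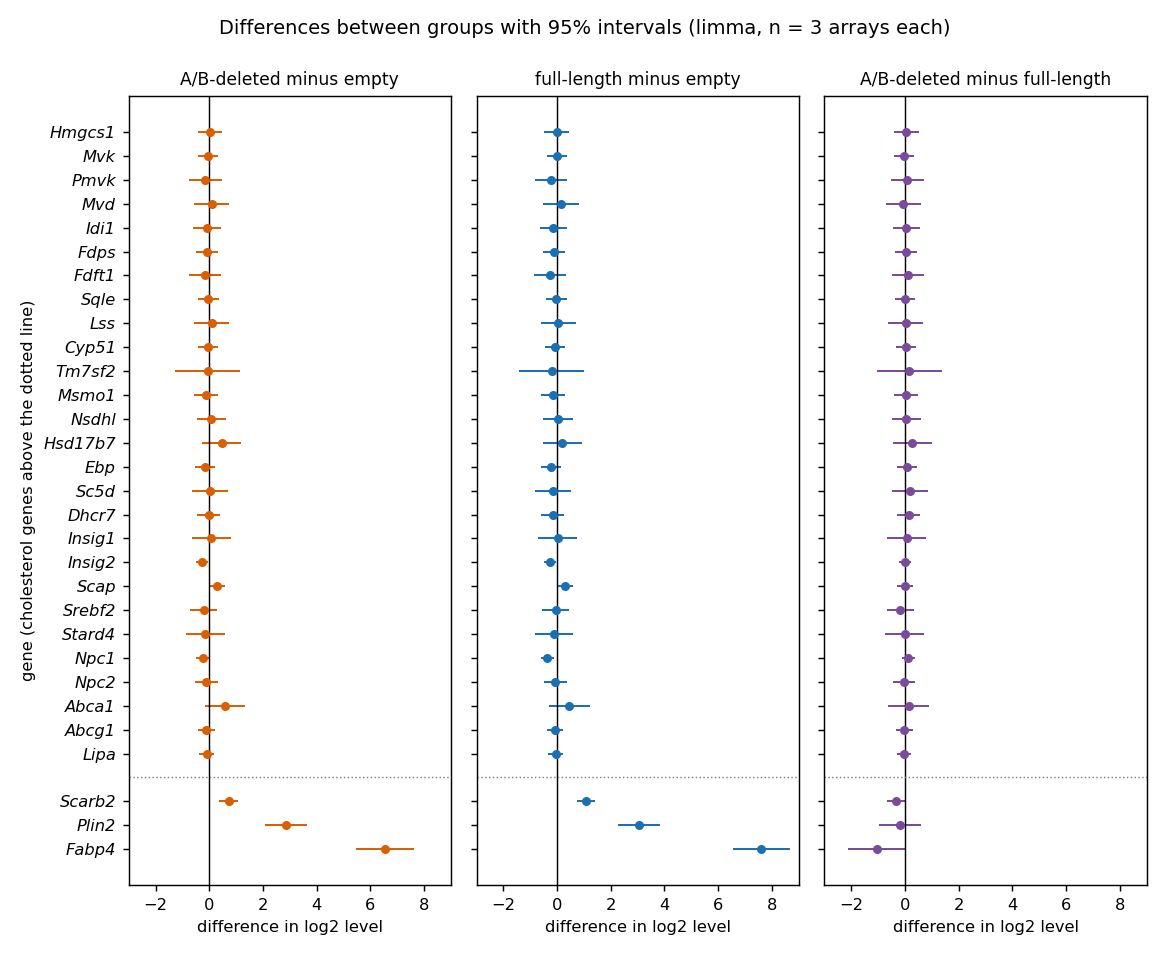
Points are differences between group means on the log2 scale with 95% limma intervals, for the 27 cholesterol genes and for Scarb2, Plin2 and Fabp4, with A/B-deleted minus empty vector, full-length minus empty vector and A/B-deleted minus full-length in separate panels. The cholesterol genes lie between -0.36 and 0.59, while Fabp4 lies at 6.54 and 7.60 against empty vector.

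The early enzymes run from HMG-CoA to farnesyl diphosphate. Their 6 measured genes had median differences of -0.06 for A/B-deleted minus empty vector, -0.07 for full-length minus empty vector and 0.05 for A/B-deleted minus full-length, and 0 of 6 were called. Hmgcs1, the synthase that makes HMG-CoA, read 12.59, 12.21 and 12.23 on the A/B-deleted arrays, 12.63, 12.14 and 12.12 on the full-length arrays and 12.67, 12.04 and 12.23 on the empty-vector arrays. The groups lay on top of each other, and within each the array numbered 1 was highest. The dimmest of its other probe sets gave 0.50 with the A/B-deleted and 0.38 with the full-length receptor. The rest gave -0.07 to 0.10. Pmvk, the kinase that adds the second phosphate to mevalonate, read 9.17, 8.71 and 8.64 on the A/B-deleted arrays, 9.15, 8.51 and 8.60 on the full-length arrays and 9.54, 8.64 and 8.77 on the empty-vector arrays. Its differences from empty vector were -0.14 (95% interval -0.74 to 0.46) and -0.23 (-0.82 to 0.37). Array 1 was again the highest in each group, and the groups overlapped. Mvd, the decarboxylase that makes isopentenyl diphosphate, read 9.75, 9.28 and 9.10 on the A/B-deleted arrays, 9.84, 9.21 and 9.25 on the full-length arrays and 9.90, 8.83 and 9.13 on the empty-vector arrays. Its differences were 0.09 (-0.57 to 0.74) and 0.15 (-0.51 to 0.80), the groups overlapping. Idi1, the isomerase that follows, read 12.04, 11.58 and 11.68 on the A/B-deleted arrays, 12.04, 11.47 and 11.63 on the full-length arrays and 12.27, 11.51 and 11.77 on the empty-vector arrays. Its differences were -0.08 (-0.59 to 0.42) and -0.14 (-0.64 to 0.37), and its 3 groups overlapped too. Mvk and Fdps, the mevalonate kinase and the farnesyl diphosphate synthase, differed from empty vector by -0.13 to 0.00 on the probe sets used.

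The late enzymes take farnesyl diphosphate through squalene to cholesterol. Their 11 genes had median differences of -0.03, -0.15 and 0.07 in the same order of comparisons, with 0 of 11 called. Fdft1, squalene synthase, read 11.33, 10.71 and 10.91 on the A/B-deleted arrays, 11.26, 10.52 and 10.83 on the full-length arrays and 11.55, 10.69 and 11.17 on the empty-vector arrays. Its difference was -0.16 (-0.74 to 0.43) with the A/B-deleted and -0.26 (-0.85 to 0.33) with the full-length receptor, and the groups overlapped. Ebp, the sterol isomerase, read 10.11, 9.72 and 9.87 on the A/B-deleted arrays, 10.11, 9.63 and 9.75 on the full-length arrays and 10.28, 9.90 and 9.99 on the empty-vector arrays. Its differences were -0.15 (-0.53 to 0.22) and -0.23 (-0.60 to 0.15), and its groups also overlapped. Tm7sf2, a sterol reductase, spread most between arrays of 1 group, with 9.57, 8.53 and 8.01 on the A/B-deleted arrays, 9.49, 8.39 and 7.79 on the full-length arrays and 9.61, 8.56 and 8.09 on the empty-vector arrays. With that spread its interval for full-length minus empty vector ran from -1.41 to 1.01. With the replicate block it ran from -0.37 to -0.03 (limma adjusted p = 0.254), though equal numbers were not taken as pairs there. For A/B-deleted minus empty vector the block interval was -0.22 to 0.12. The enzymes Sqle, Lss, Cyp51, Msmo1, Nsdhl, Sc5d and Dhcr7 differed from empty vector by -0.17 to 0.09 on the probe sets used. Some of their other probe sets lay outside that range. Those of Lss gave 0.44 and 0.11 with the A/B-deleted and 0.35 and -0.04 with the full-length receptor. Those of Sc5d gave 0.30 and 0.26 with the A/B-deleted and 0.39 and -0.00 with the full-length receptor.

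Hsd17b7, a ketosteroid reductase of the demethylation steps, had the largest difference of the synthesis genes. It read 10.43, 9.95 and 9.56 on the A/B-deleted arrays, 10.17, 9.69 and 9.27 on the full-length arrays and 10.15, 9.21 and 9.20 on the empty-vector arrays. The A/B-deleted arrays were higher than the equally numbered full-length arrays by 0.26, 0.26 and 0.29, yet the groups overlapped. The difference was 0.46 for A/B-deleted minus empty vector (SE 0.33, 95% interval -0.27 to 1.19, limma adjusted p = 1). With the replicate block that interval was 0.19 to 0.73 and the adjusted p 0.182. The difference between the A/B-deleted and full-length receptors was 0.27 (-0.46 to 1.00). Of its 4 probe sets, the other 3 gave 0.43, 0.38 and -0.01 for A/B-deleted minus empty vector.

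Of the 4 sensing genes 0 were called, and Insig2 and Scap lay on opposite sides of their empty-vector levels. Insig2, a retention protein of SCAP, read 8.19, 8.19 and 8.29 on the A/B-deleted arrays, 8.25, 8.23 and 8.20 on the full-length arrays and 8.46, 8.57 and 8.42 on the empty-vector arrays. Every receptor array lay below every empty-vector array, and the receptor groups overlapped each other. The difference was -0.26 (SE 0.10, interval -0.48 to -0.04, limma adjusted p = 1) with the A/B-deleted and -0.26 (interval -0.48 to -0.04, limma adjusted p = 0.617) with the full-length receptor. Its other probe sets gave -0.21 and -0.27 for A/B-deleted minus empty vector and -0.33 and -0.40 for full-length minus empty vector. Scap read 10.32, 10.56 and 10.18 on the A/B-deleted arrays, 10.34, 10.52 and 10.20 on the full-length arrays and 10.07, 10.05 and 10.08 on the empty-vector arrays. Here every receptor array lay above every empty-vector array. The differences were 0.29 (SE 0.13, interval -0.01 to 0.58, limma adjusted p = 1) and 0.28 (interval -0.01 to 0.58, limma adjusted p = 0.855), and a second probe set gave -0.01 and 0.19. With the replicate block both intervals were 0.05 to 0.52 (limma adjusted p = 0.374 and 0.237). Srebf2 itself read 9.70, 9.33 and 9.90 on the A/B-deleted arrays, 9.87, 9.43 and 10.15 on the full-length arrays and 10.02, 9.52 and 10.03 on the empty-vector arrays. Its groups overlapped throughout, with differences of -0.21 (-0.72 to 0.29) and -0.04 (-0.55 to 0.46). With the replicate block these intervals were -0.41 to -0.02 (limma adjusted p = 0.439) and -0.23 to 0.15. A second probe set of Srebf2 gave -0.06 and -0.20, the reverse order. Insig1, the INSIG gene that SREBP2 itself switches on, differed from empty vector by 0.08 (-0.65 to 0.81) and 0.02 (-0.71 to 0.75).

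Transport genes gave the same count, 0 of 6 called, with median differences of -0.11 for A/B-deleted minus empty vector, -0.07 for full-length minus empty vector and -0.02 for A/B-deleted minus full-length. Npc1, the membrane protein through which cholesterol leaves the lysosome, read 7.19, 7.21 and 7.23 on the A/B-deleted arrays, 7.19, 7.17 and 6.92 on the full-length arrays and 7.53, 7.44 and 7.38 on the empty-vector arrays. All receptor arrays lay below all empty-vector arrays. The difference was -0.24 (SE 0.11, interval -0.49 to 0.01, limma adjusted p = 1) with the A/B-deleted and -0.36 (interval -0.61 to -0.11, limma adjusted p = 0.367) with the full-length receptor. With the replicate block these intervals were -0.45 to -0.03 and -0.57 to -0.15 (limma adjusted p = 0.41 and 0.0938). Between the receptor groups the difference was 0.12 (-0.13 to 0.37); the lowest A/B-deleted and the highest full-length array both read 7.19 after rounding. Abca1, the exporter of cholesterol to apolipoproteins, read 6.21, 6.54 and 5.79 on the A/B-deleted arrays, 6.27, 6.67 and 5.19 on the full-length arrays and 5.53, 5.67 and 5.56 on the empty-vector arrays. These levels all lay below the lowest array median, 6.68, and with no detection calls they are not shown to be above background, so the differences are uncertain. The A/B-deleted arrays all lay above the empty-vector arrays, while the full-length array numbered 3 lay below them. The differences were 0.59 (SE 0.34, interval -0.16 to 1.35, limma adjusted p = 1) and 0.46 (interval -0.30 to 1.21, limma adjusted p = 1). With the replicate block the intervals were 0.01 to 1.18 and -0.13 to 1.05 (limma adjusted p = 0.503 and 0.527). Its other probe sets gave 0.19 and 0.04 with the A/B-deleted and 0.18 and -0.38 with the full-length receptor. Stard4, a carrier of cholesterol between membranes, read 10.76, 10.06 and 10.01 on the A/B-deleted arrays, 10.88, 10.04 and 9.95 on the full-length arrays and 10.95, 10.15 and 10.15 on the empty-vector arrays, again with array 1 highest. Its differences were -0.14 (-0.85 to 0.58) and -0.12 (-0.84 to 0.59). The other probe sets of Stard4 gave 0.02 and -0.12 with the A/B-deleted and -0.03 and -0.43 with the full-length receptor. Npc2, Lipa and Abcg1 differed from empty vector by -0.11 to -0.06 on the probe sets used.

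Genes whose groups did not overlap are listed here beside the share over all genes. For A/B-deleted minus empty vector they were 4 of 27 genes, Scap and, at its low level, Abca1 higher and Insig2 and Npc1 lower, where 7.89% of all genes did not overlap (3.86% higher and 4.03% lower). For full-length minus empty vector they were 3 of 27, Scap higher and Insig2 and Npc1 lower, where 9.38% of all genes did not overlap (4.52% higher and 4.86% lower). For A/B-deleted minus full-length Npc1 alone did not overlap and was higher, where 5.17% of all genes did not overlap (2.02% higher and 3.14% lower). After median centring or quantile normalization 0 of 27 did not overlap between the receptors. Counts among 27 genes are not read here as an excess or a lack.

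**Figure D3:**
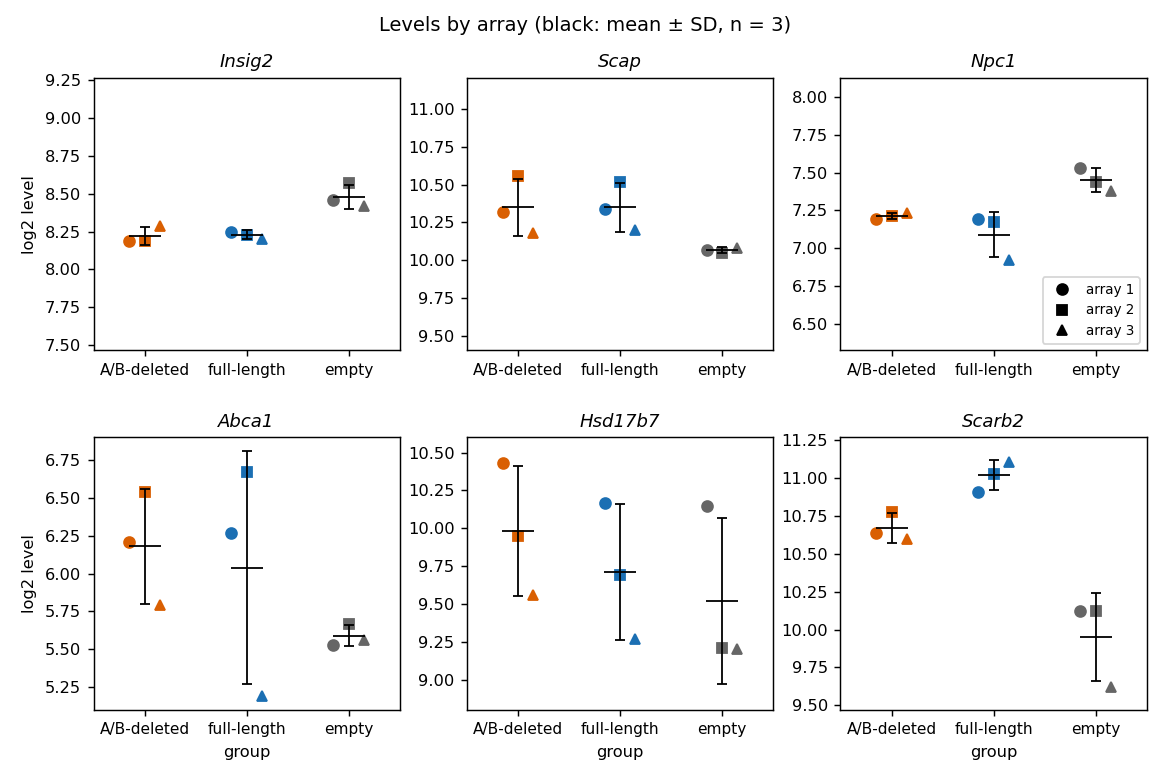
Points are log2 levels on single arrays and black marks the mean ± SD of 3 arrays, for Insig2, Scap, Npc1, Abca1, Hsd17b7 and Scarb2, with A/B-deleted, full-length and empty-vector groups left to right. Insig2 and Npc1 lie lower and Scap and Scarb2 higher in both receptor groups than with empty vector, without overlap.

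The synthesis genes moved together between arrays of equal number rather than between groups, a pattern examined after the values were seen. Their median level was 10.73, 10.12 and 10.34 on the A/B-deleted arrays numbered 1, 2 and 3, 10.76, 10.07 and 10.34 on the full-length arrays and 10.90, 10.04 and 10.28 on the empty-vector arrays. The group means of these medians were 10.40 ± 0.31, 10.39 ± 0.35 and 10.41 ± 0.45 (SD, n = 3). Array 1 exceeded the mean of arrays 2 and 3 in 17 of 17 synthesis genes with the A/B-deleted receptor, in 16 of 17 with the full-length receptor and in 17 of 17 with empty vector. The excess had a median of 0.37, 0.50 and 0.62 in these groups, against 0.02, -0.07 and 0.06 over all genes. Array 1 was the highest of its group in all 3 groups for 15 of 17 synthesis genes, all but Mvk and Fdps, and for 18 of 27 cholesterol genes, where 5.17% of all genes showed this.

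A limma F test of the replicate number as a block term treated equal numbers as matched in all 3 groups. Full-length and empty-vector arrays of equal number were not taken as pairs elsewhere, so the calls rest on that reading. The test called 19 of 27 cholesterol genes at an adjusted p under 0.05, where 14.9% of all genes were called. They were 15 of 17 synthesis genes, all but Mvk and Dhcr7, together with Insig1, Srebf2, Stard4 and Npc2. The lowest adjusted p was 0.000334, for Tm7sf2, and Insig1 had 0.0197. Srebf2, with 0.0102, had its highest level on array 3 and not on array 1 in each of the 3 groups. With empty vector these arrays were close, at 10.03 and 10.02. Insig2, Scap, Npc1, Abca1, Abcg1 and Lipa were not called between numbers, with adjusted p-values of 0.967, 0.354, 0.633, 0.166, 0.294 and 0.169. Without the arrays numbered 3, which stood apart in other ways, 2 of 27 were called on 6 arrays, and leaving out single arrays gave 4 to 16. Of 14 genes of the fatty acid arm of lipid synthesis 5 were called between numbers, and 5 had array 1 highest in all 3 groups. Among the 9 fibroblast markers 5 were also called between numbers, with array 1 highest in all 3 groups for 1. Whether the numbers mark the individual experiments is not given in the labels, and the source of the pattern was not tested.

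**Figure D4:**
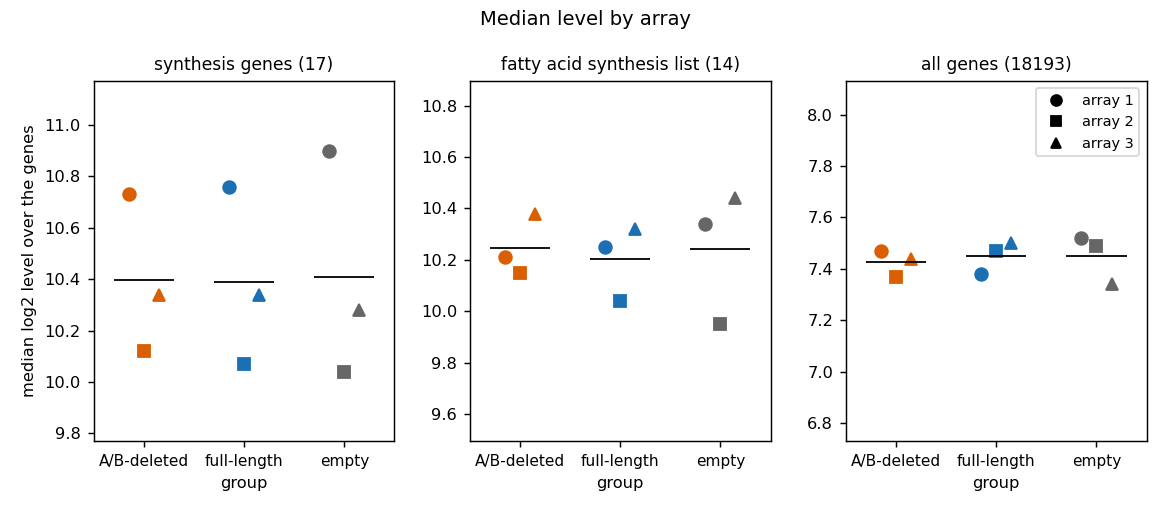
Points are median log2 levels on each of the 9 arrays (marker shape gives the replicate number) for the 17 synthesis genes, the 14 fatty acid genes and all 18193 genes, and the black line is the mean of the 3 arrays of a group. The synthesis median is highest on the array numbered 1 in all 3 groups, while the group means lie at 10.40, 10.39 and 10.41.

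Promoters were read from RefSeq (GRCm38.p6), from 250 bases before to 50 after the start. Windows were found for 21 of the 27 genes, 14 of them synthesis genes. The letters CCAAT, the binding motif of NF-Y, a partner of SREBP2, stood on either strand in at least 1 window of 14 of 14 synthesis genes. By window the count was 14 of 17, against 37.4% of all 32851 promoter windows. Over all the cholesterol genes it stood in 19 of 21 genes and 19 of 27 windows. Those with the motif include Mvk, Dhcr7, Insig2 and Lipa, which were not called between replicate numbers. The letters TCACNCCAC, a form of the sterol regulatory element, stood in 1 of 27 windows, that of Hmgcs1, against 1.24% of all windows. CACGTG stood in 7 of 27 windows and 6 of 21 genes, and in 3 of 17 synthesis windows, against 7.15% of all windows. The windows of Scap overlap and share a site, which was counted in each. A pair of AGGTCA copies with 1 base between them, the form that PPARγ binds with RXR, stood in 0 of 27 windows, against 0.0396% of all windows. This exact form is so rare, in 13 of 32851 windows, that its absence here says nothing about PPARγ binding. Hmgcs1 and Idi1 are shown as synthesis genes, Insig1 as a sensing gene that was also called between replicate numbers, and Abca1 as an exporter that was not and that, like Scap, lacks CCAAT. Each is written 5′ to 3′ along its gene, with CCAAT in either direction and TCACNCCAC in capitals.
Hmgcs1, chr13:119690101-119690400, plus strand: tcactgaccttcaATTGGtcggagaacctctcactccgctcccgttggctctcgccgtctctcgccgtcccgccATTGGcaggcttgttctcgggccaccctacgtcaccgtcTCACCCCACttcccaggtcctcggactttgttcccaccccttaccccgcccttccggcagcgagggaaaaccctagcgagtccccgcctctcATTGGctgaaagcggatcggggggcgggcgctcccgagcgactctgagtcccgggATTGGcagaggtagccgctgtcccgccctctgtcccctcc
Idi1, chr13:8885356-8885655, plus strand: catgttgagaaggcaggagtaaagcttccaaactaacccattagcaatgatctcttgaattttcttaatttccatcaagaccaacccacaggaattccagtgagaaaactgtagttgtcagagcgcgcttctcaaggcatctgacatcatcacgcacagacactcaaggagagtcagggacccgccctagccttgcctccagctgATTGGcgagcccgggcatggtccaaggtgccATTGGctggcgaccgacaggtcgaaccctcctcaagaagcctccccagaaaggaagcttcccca
Insig1, chr5:28071162-28071461, plus strand: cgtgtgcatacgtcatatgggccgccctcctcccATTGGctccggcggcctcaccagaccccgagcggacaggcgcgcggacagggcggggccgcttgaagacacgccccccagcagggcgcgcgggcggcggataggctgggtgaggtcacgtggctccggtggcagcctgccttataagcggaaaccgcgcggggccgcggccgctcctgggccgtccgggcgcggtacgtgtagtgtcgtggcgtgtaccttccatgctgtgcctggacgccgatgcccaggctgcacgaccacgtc
Abca1, chr4:53159846-53160145, minus strand: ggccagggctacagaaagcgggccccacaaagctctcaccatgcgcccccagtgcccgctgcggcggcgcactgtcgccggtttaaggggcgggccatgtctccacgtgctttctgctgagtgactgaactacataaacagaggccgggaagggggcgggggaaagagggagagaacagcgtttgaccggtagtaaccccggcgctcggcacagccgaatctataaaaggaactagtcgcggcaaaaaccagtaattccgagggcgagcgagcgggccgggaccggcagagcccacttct
The element in Hmgcs1 starts at -137 from the start, and Abca1 has no capitals. A match in letters is a description and shows no binding.

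Of 36 further genes of sterol and isoprenoid handling 32 were measured. Their median differences were 0.03 for A/B-deleted minus empty vector, 0.02 for full-length minus empty vector and 0.01 for A/B-deleted minus full-length, and 1 was called in the fit without a block. Scarb2, a lysosomal membrane protein, read 10.64, 10.78 and 10.60 on the A/B-deleted arrays, 10.91, 11.03 and 11.11 on the full-length arrays and 10.12, 10.12 and 9.62 on the empty-vector arrays. The 3 groups did not overlap. Scarb2 rose by 1.07 with the full-length receptor (SE 0.15, interval 0.73 to 1.41, limma adjusted p = 0.0138), a 2.09-fold difference. With the A/B-deleted receptor the difference was 0.72 (interval 0.38 to 1.06, limma adjusted p = 0.233). Between the A/B-deleted and full-length receptors it was -0.34 (-0.68 to -0.00, limma adjusted p = 1). A second probe set of Scarb2 gave 0.26 with the A/B-deleted and 0.42 with the full-length receptor. The call was lost on the 6 compared arrays alone (limma adjusted p = 0.0665) and without the full-length array numbered 2 (limma adjusted p = 0.0794). Cav1, the coat protein of caveolae, and Mylip, a ligase that degrades lipoprotein receptors, had the next largest differences, -0.34 and -0.65 for Cav1 and -0.10 and -0.44 for Mylip with the A/B-deleted and full-length receptors, and neither was called without a block. With the replicate number as a block 2 of the 32 were called for full-length minus empty vector, Scarb2 and Cav1, and Cav1 had an interval of -0.83 to -0.46 (limma adjusted p = 0.00965). Equal numbers were not taken as pairs in that comparison. Of the 14 fatty acid genes 0 were called, with medians of 0.14 and 0.11 against empty vector. Gpam, which starts glycerolipid synthesis, and Scd1, the stearoyl-CoA desaturase, had the largest differences, 0.37 and 0.36 with the A/B-deleted and 0.26 and 0.18 with the full-length receptor.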

How the data were processed

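Transcript levels of NIH-CAR cells were measured on 9 Affymetrix arrays, 3 per group, with groups and replicate numbers from the sample titles. The deposited values were log2 levels that the authors made with RMA (package affy, R 2.5.0), according to the submitters' processing notes. The base is not in the labels and was read from the values, since powers of 2 gave whole multiples of 0.01 for at least 99.858% of values of each array. The table held 45101 probe sets, 34945 with 1 gene symbol, 932 with several, 9160 with none and 64 controls, and no detection calls. Array medians were 6.68 to 6.90. Precision is limited by how many arrays there are, and a difference had a median SE of 0.158.

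Single-gene probe sets were reduced to the one with the highest mean, giving 18193 genes. Differences were fitted with limma 3.58.1 in R 4.3.3 (lmFit, eBayes, two-sided, 3 group means, 6 residual and 3.374 prior degrees of freedom), with Benjamini-Hochberg adjustment over all genes and calls at an adjusted p under 0.05. Intervals are at the 95% level and come from the same fit. Tables and figures used Python 3.11.15, pandas 2.3.3, numpy 2.4.6 and matplotlib 3.10.9.

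Equal replicate numbers were checked by the correlation of deviations from group means. It was 0.57, 0.52 and 0.708 between A/B-deleted and empty-vector arrays and 0.297, 0.507 and 0.531 between A/B-deleted and full-length arrays. Equal numbers were read as pairs there, an inference that the labels do not give. Full-length array 1 also correlated 0.225 with A/B-deleted array 2. Between full-length and empty-vector arrays it was -0.121, 0.631 and 0.255, and these were not taken as pairs. Full-length array 1 correlated 0.24 with empty-vector array 2. Pairs through the A/B-deleted arrays would also pair the other groups, so these readings do not all hold together. The main fit has no block.

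The genes and lists were chosen with earlier results of these data known. Values of every array are given for genes called or without overlap between groups in any comparison and for the 3 largest differences of each role group. Hmgcs1 and Tm7sf2 were added after their values were seen, as were the test between replicate numbers and the choice of promoters and motifs. From the context lists the called genes and those with the largest differences were named. In all, 17 alternative settings were run.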

Additional observations from a re-analysis of the deposited data

How the results depend on the processing

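In the reported fit and all 17 alternatives limma called 0 of 27 cholesterol genes in each of the 3 comparisons, and the lowest adjusted p of any of them was 0.0938. The alternatives were a replicate block, the mean of probe sets, median centring, quantile normalization, dim genes left out (3 of the 27), only the 6 compared arrays, a trend prior, no arrays numbered 3, and each array left out in turn. Of 657 recomputed differences of 12 cholesterol genes and Scarb2, 47 changed sign, none of them called. Medians of the synthesis genes moved by less than the replicate SD of 0.37, but single arrays turned their sign. The median for A/B-deleted minus empty vector was -0.04, and it was 0.14 without empty-vector array 1 and -0.16 without array 2, within a range of -0.16 to 0.14. For full-length minus empty vector it was -0.13, and 0.12 and -0.29 without those arrays, the ends of its range. Between A/B-deleted and full-length it was 0.05, with a range of -0.07 to 0.22.

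Counts over all genes moved more. For A/B-deleted minus empty vector 31 genes were called, against 166 with the replicate block, where equal numbers were read as pairs. The count was 20 on the 6 compared arrays and 55 without the arrays numbered 3. It was 17 to 34 with single arrays left out (17 or 19 without array 1 or 2 of either group). For full-length minus empty vector 119 were called, against 661 with the replicate block, 187 with dim genes left out, 67 on the 6 compared arrays, and 57 to 114 with single arrays left out (71 and 57 without full-length array 1 and 2, 69 and 62 without empty-vector array 1 and 2). For A/B-deleted minus full-length 0 were called and 277 had an unadjusted p under 0.05 in limma. Leaving out single arrays gave 0 to 1, the 1 without full-length array 3.

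Between replicate numbers 19 cholesterol genes were called, against 12 after median centring, 2 without the arrays numbered 3, and 4 to 16 with single arrays left out. Those counts were 9 and 4 without A/B-deleted array 1 and 3, 12 and 8 without full-length array 1 and 2, and 9 and 12 without empty-vector array 1 and 2. Over all genes 2708 were called, against 1748 after median centring, 4138 with dim genes left out, 4099 with the trend prior, 88 without the arrays numbered 3, and 776 to 2097 with single arrays left out. Fits with fewer arrays have fewer degrees of freedom. For the other settings the cause was not tested. Genes whose groups did not overlap were 2 to 7 of 27 for A/B-deleted minus empty vector, 2 to 6 for full-length minus empty vector and 0 to 6 for A/B-deleted minus full-length. With all 9 arrays and as reported, 7.89%, 9.38% and 5.17% of all genes did not overlap in these comparisons. The highest counts came from settings with arrays left out, where smaller groups overlap less often. The share of all genes was not counted in those settings, so the ranges are not a result about the cholesterol genes.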
